A study of Homo sapiens with 4 samples.

Results

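Integrins are the receptors with which cells hold on to the extracellular matrix. Each receptor pairs an alpha with a beta subunit in the plasma membrane, binds matrix proteins outside the cell and connects to the actin cytoskeleton inside it through talin, kindlin and other adaptors. The alpha subunit largely sets the ligand, ITGB1 is shared by most alpha subunits, and ITGB4 pairs with ITGA6 in the hemidesmosome, which anchors epithelial cells to laminin and joins the keratin network.

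The 10 subunit genes described here are the alpha subunits ITGA2, ITGA3, ITGA5, ITGA6, ITGAV and ITGAX and the beta subunits ITGB1, ITGB3, ITGB4 and ITGB5. They were selected by gene name from the 6828 genes in the table of the study, and their symbols were chosen on this table, with their differences between the groups known. The table lists only genes that passed an adjusted p of 0.05 in the authors' own comparison, so each subunit differed between the groups by selection, and the differences are given as a description, with no p-value for a subunit. Of the 26 human integrin alpha and beta genes, 15 are listed. The 5 listed genes outside the set of 10 are ITGA1, ITGA2B, ITGA4, ITGA11 and ITGAM, and the other 11 genes were not analysed here.

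RNA-seq of polyadenylated RNA was carried out on A549, a human lung adenocarcinoma cell line with epithelial character, 72 h after lentiviral infection. Cells of the shctrl group carried a control shRNA and cells of the shUSP2-AS1 group an shRNA against the long noncoding RNA USP2-AS1, both in the PLKO.1 vector, with 2 libraries per group. Both groups were infected, the choice among the study's USP2-AS1 shRNAs is not given in the sources used here, and the study's methods call the 2 libraries of a group biological replicates. The comparison describes which RNAs differed between cells with the USP2-AS1 shRNA and cells with the control shRNA. In these libraries, effects of the loss of USP2-AS1 and other effects of the shRNA cannot be told apart.

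The values are normalized read counts, that is, reads per gene divided by a size factor of the library, and 10772788 to 14120472 reads per library fell on the listed genes. USP2-AS1, the target of the shRNA, had 24 and 22 reads in shctrl and 2 and 7 reads in shUSP2-AS1. Of 6 epithelial markers, 4 keratin genes (KRT7, KRT8, KRT18 and KRT19) are listed, with a summed normalized count of 168132 to 179244 in shctrl and 106336 to 112823 in shUSP2-AS1. KRT7, KRT8 and KRT18 were lower in shUSP2-AS1, and KRT19 was higher, with means of 3476 and 5820. Of 10 leukocyte markers only ITGAM is listed, of 6 alveolar type II markers only ABCA3, of 7 fibroblast markers COL1A1 and LUM, and of 4 endothelial markers none. ABCA3 had 1273 and 1357 in shctrl against 4610 and 4311 in shUSP2-AS1, and the fibroblast pair summed to 263 and 295 against 555 and 634. The part of these differences in the results below was not tested, and in bulk RNA fewer cells of a type and less RNA per cell cannot be told apart.

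Across the 10 genes, all 6 alpha subunits were higher in shUSP2-AS1 than in shctrl cells, whereas the 4 beta subunits divided, with ITGB3 and ITGB5 higher and ITGB1 and ITGB4 lower. The log2 fold changes ran from -0.66 for ITGB1 to 2.96 for ITGAX, with a median of 1.42 over the alpha and -0.10 over the beta subunits, beside 0.19 over the 6812 genes fitted with limma (-0.23 over the 6092 genes with a mean of at least 100). A gene was called where the fold change was at least 1 on the log2 scale, in either direction, and the p-value after Benjamini-Hochberg adjustment was under 0.05. Since the listed genes had already passed a p-value threshold on these libraries, 6811 of the 6812 genes met the p-value part, and a call says little more than that the difference was of this size. By this rule 4 of the 10 subunits were called, and each of the 4 was higher. These were ITGAX, ITGA5, ITGAV and ITGB3. Among all genes fitted 29.7% were called, 16.1% as higher (1098) and 13.5% as lower (922). This balance turned to 934 higher and 1143 lower with RLE scaling of the reads. That scaling assumes that most genes do not differ, yet it was computed on the listed genes alone, which were selected for a difference. Of the 6092 genes with a mean of at least 100, 648 were called higher and 715 lower. The libraries of the groups did not overlap for any of the 10 subunits, nor for 6811 of the 6812 genes, or 100%, so nothing is read from these shares.

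**Figure D1:**
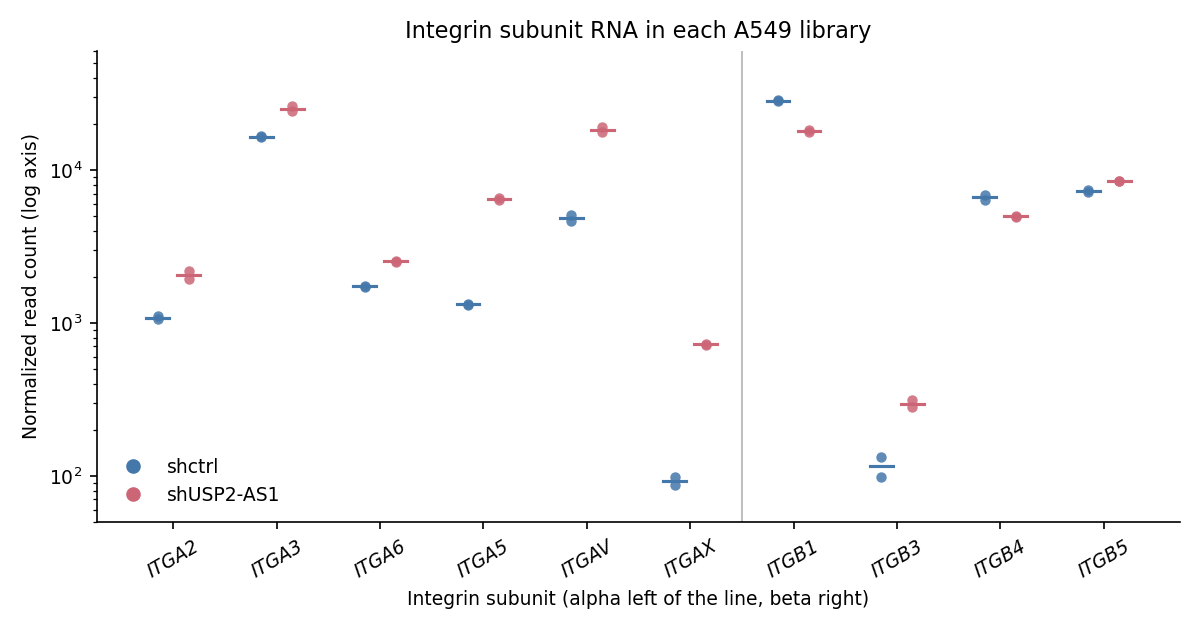
Normalized read count (log axis) of each integrin subunit in each A549 library. Points are libraries, blue for shctrl and red for shUSP2-AS1, and bars are means of 2. The red points of ITGAX, ITGA5 and ITGAV lie far above the blue ones, from 92.4 to 726 on average for ITGAX, and those of ITGB1 lie below, from 28307 to 17903.

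ITGA5 and ITGAV, alpha subunits that bind the RGD sequence of fibronectin and vitronectin, had large differences at high read counts. Large differences did not follow RGD binding alone. The log2 fold change was higher still for ITGAX (2.96) and for the collagen receptor ITGA11 (2.65). For ITGB5, a partner of ITGAV, it was only 0.21. ITGA5 (ENSG00000161638, chr12:54395261-54419266 in hg38, minus strand), which with ITGB1 forms the main fibronectin receptor, had normalized read counts of 1314 and 1323 in shctrl cells and 6518 and 6310 in shUSP2-AS1 cells. The mean was 4.86 times higher, at 1319 ± 6.39 (SD, n = 2) against 6414 ± 147 (SD, n = 2), a log2 difference of 2.28 (standard error 0.05). ITGAV (ENSG00000138448, chr2:186590056-186680901, plus strand), which pairs with ITGB1, ITGB3 and ITGB5 and binds vitronectin, fibronectin and latent TGF-beta, had counts of 4647 and 5035 in shctrl and of 19093 and 17547 in shUSP2-AS1. In both genes the lowest shUSP2-AS1 library lay well above the highest shctrl library. Groups without overlap were found for 6811 of the 6812 genes, so only the size of the gap is described. The mean of ITGAV was 3.78 times higher and its log2 fold change was 1.92 (standard error 0.05). ITGA5 had between 1204 and 7167 reads in the 4 libraries and ITGAV between 4582 and 19930, so counting error was small against these differences. Of all genes fitted, 166 had a larger log2 fold change than ITGA5 and 292 a larger one than ITGAV.

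ITGB1 (ENSG00000150093, chr10:32900318-33005792, minus strand), the common partner of ITGA2, ITGA3, ITGA5, ITGA6 and ITGAV, had the opposite direction. Its normalized read counts were 28063 and 28551 in shctrl and 17572 and 18234 in shUSP2-AS1, means of 28307 ± 345 and 17903 ± 468 (SD, n = 2 each). The shUSP2-AS1 mean was 63.2% of the shctrl mean, a log2 difference of -0.66 (standard error 0.05), inside the threshold for a call. ITGB1-DT, a noncoding gene on the opposite strand whose exons share 401 bases with those of ITGB1 in GENCODE release 44, had counts of 146 and 125 in shctrl and 584 and 601 in shUSP2-AS1. Whether the authors counted reads by strand is not given in the sources used here, so reads in the shared bases cannot be assigned to either gene. Even the highest count of ITGB1-DT was small beside the lowest of ITGB1.

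The promoters of these 3 subunits are shown because ITGA5 and ITGAV were higher and their partner ITGB1 lower in the same cells. Each is a RefSeq sequence (GRCh38.p14) from 250 bases before to 50 bases after the start, read 5′ to 3′ on the strand of the gene. ITGAV and ITGB1 have 2 such entries each, and only the entry nearest the gene start that the authors give was searched. ITGA5 lies on the minus strand of chromosome 12 (chr12:54419217-54419516), ITGAV on the plus strand of chromosome 2 (chr2:186589806-186590105) and ITGB1 on the minus strand of chromosome 10 (chr10:32958181-32958480). Capitals mark matches on either strand to the AP-1 motif TGANTCA, the TEAD motif GGAATG and the GC box GGGCGG, of which no 2 overlapped.
ITGA5: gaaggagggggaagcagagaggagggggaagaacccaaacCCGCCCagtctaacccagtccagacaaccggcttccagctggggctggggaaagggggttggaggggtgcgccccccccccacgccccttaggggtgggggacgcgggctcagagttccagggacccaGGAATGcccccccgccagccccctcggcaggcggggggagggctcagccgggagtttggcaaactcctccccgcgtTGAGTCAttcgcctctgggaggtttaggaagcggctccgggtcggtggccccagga
ITGAV: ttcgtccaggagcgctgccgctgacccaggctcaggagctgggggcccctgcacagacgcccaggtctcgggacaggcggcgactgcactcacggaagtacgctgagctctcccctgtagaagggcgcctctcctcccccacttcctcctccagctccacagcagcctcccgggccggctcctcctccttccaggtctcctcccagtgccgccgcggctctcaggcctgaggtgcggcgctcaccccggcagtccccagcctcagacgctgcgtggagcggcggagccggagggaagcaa
ITGB1: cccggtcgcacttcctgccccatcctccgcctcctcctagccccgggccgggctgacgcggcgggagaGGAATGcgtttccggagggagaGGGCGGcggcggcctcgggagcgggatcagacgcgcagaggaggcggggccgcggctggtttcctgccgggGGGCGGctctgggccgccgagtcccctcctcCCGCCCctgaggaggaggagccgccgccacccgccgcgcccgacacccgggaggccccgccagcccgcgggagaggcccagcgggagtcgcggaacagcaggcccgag

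In the window of ITGA5 the AP-1 match began at position -6 and the TEAD match at position -82 relative to the start, with 1 GC box. The window of ITGB1 held a TEAD match and 3 GC boxes, and that of ITGAV had no match to the motifs searched. The sequences are rich in G and C, at 69.3% for ITGA5, 70.7% for ITGAV and 78.3% for ITGB1, beside a median of 58.7% over the 35116 promoters of the same length in the table. Promoters of 6 of the 10 subunits were matched (ITGA2, ITGA5, ITGA6, ITGAV, ITGB1 and ITGB5), with a single entry used per gene. Of these, 1 held the AP-1 motif, 2 the TEAD motif and 5 the GC box, beside 7.71%, 14.0% and 45.0% of all promoters. The E2F motif, searched as TTTCCCGC, TTTCGCGC, TTTGCCGC and TTTGGCGC on both strands, was in 3.31% of all promoters and not among the letters of these 6 windows. The start of ITGB1 in RefSeq lies 47562 bases inside the outer end that the authors' table gives for the gene, whereas the starts of ITGA5 and ITGAV coincide with it.

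ITGB3 and ITGB5, the other partners of ITGAV among the 10 subunits, were both higher but by different amounts. ITGB3 (ENSG00000259207, chr17:47253827-47313743, plus strand), which with ITGAV forms the classical vitronectin receptor, had counts of 98.6 and 132 in shctrl and 283 and 311 in shUSP2-AS1. Its log2 fold change was 1.37 (standard error 0.15), and it rested on 102 and 120 reads in shctrl and 269 and 353 in shUSP2-AS1. The shctrl libraries lay apart, so the value was 1.16 without shctrl replicate 1 and 1.58 without shctrl replicate 2. In GENCODE release 44 the exons of ITGB3 share 2266 bases with a second protein-coding gene on the same strand (ENSG00000259753), and how such reads were split is not given in the sources used here. ITGB5 had counts of 7361 and 7210 in shctrl and 8442 and 8462 in shUSP2-AS1, 1.16 times higher on average, a log2 difference of 0.21 (standard error 0.05). It was the smallest difference among the 10, and it was 0.10 with RLE scaling, which moved the median of all genes by -0.12.

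The differences of the laminin-binding subunits were smaller than those of ITGA5 and ITGAV. ITGA3, the most abundant alpha subunit and a laminin receptor with ITGB1, had counts of 16361 and 16566 in shctrl and 26001 and 24309 in shUSP2-AS1, a log2 difference of 0.61 (standard error 0.05). ITGA6, which binds laminin with ITGB1 or ITGB4, had 1745 and 1718 in shctrl and 2546 and 2492 in shUSP2-AS1, a log2 difference of 0.54 (standard error 0.05). The difference was of about the same proportion in both genes. ITGB4 had 6362 and 6854 in shctrl and 5021 and 4886 in shUSP2-AS1, so the beta subunit of the hemidesmosome was lower while its alpha partner was higher. The shUSP2-AS1 mean of ITGB4 was 75.0% of the shctrl mean, a log2 difference of -0.41 (standard error 0.05).

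ITGA2, the collagen-binding partner of ITGB1, had counts of 1052 and 1111 in shctrl and 2195 and 1934 in shUSP2-AS1. Its log2 fold change of 0.93 (standard error 0.07) was short of the threshold, with ITGB3 at 1.37 the nearest subunit past it, and reached 1.02 without shUSP2-AS1 replicate 2. ITGA2 was thereby the only subunit of the 10 whose call depended on a single library.

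ITGAX (ENSG00000140678, chr16:31355134-31382999, plus strand), also known as CD11c, is best known from dendritic cells and macrophages, where it pairs with ITGB2 and binds complement-coated particles. It had the largest ratio between the groups. Its normalized read counts were 87.0 and 97.8 in shctrl and 731 and 721 in shUSP2-AS1, 7.86 times higher on average, and its log2 fold change was 2.96 (standard error 0.12). These values came from 90 and 89 reads against 695 and 819 reads. Only 50 of the genes fitted had a larger log2 fold change. ITGB2, the usual partner, and the leukocyte genes PTPRC, CD14, CD68, CSF1R and LYZ are not among the listed genes and were not analysed here. ITGAM, or CD11b, which also pairs with ITGB2 in myeloid cells, is the neighbour of ITGAX on chromosome 16, with 22241 bases between the genes. ITGAM had counts of 78.3 and 105.5 in shctrl and 270 and 240 in shUSP2-AS1, a log2 difference of 1.48 (standard error 0.16).

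The other 4 listed alpha subunits had few reads in shctrl. ITGA11, a collagen receptor of fibroblasts, had counts of 188 and 199 in shctrl and 1177 and 1271 in shUSP2-AS1, a log2 difference of 2.65 (standard error 0.09). ITGA1, another collagen receptor, had 41.5 and 38.5 against 137 and 117, and ITGA4, which binds fibronectin and VCAM1, had 77.3 and 70.3 against 143 and 133. The exons of ITGA1 overlap those of PELO and those of ITGA4 overlap those of CERKL, so part of these reads is uncertain. ITGA2B, the platelet subunit, was the only listed alpha gene that was lower, with 99.5 and 84.6 in shctrl and 40.0 and 50.2 in shUSP2-AS1. Among these 5 genes 3 were called higher (ITGA11, ITGA1 and ITGAM) and 1 lower (ITGA2B), beside 16.1% and 13.5% of all genes. The log2 fold change of ITGA2B was -1.02 (standard error 0.22), and it was -0.86 without shUSP2-AS1 replicate 1 and -0.90 without shctrl replicate 1, short of a call.

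**Figure D2:**
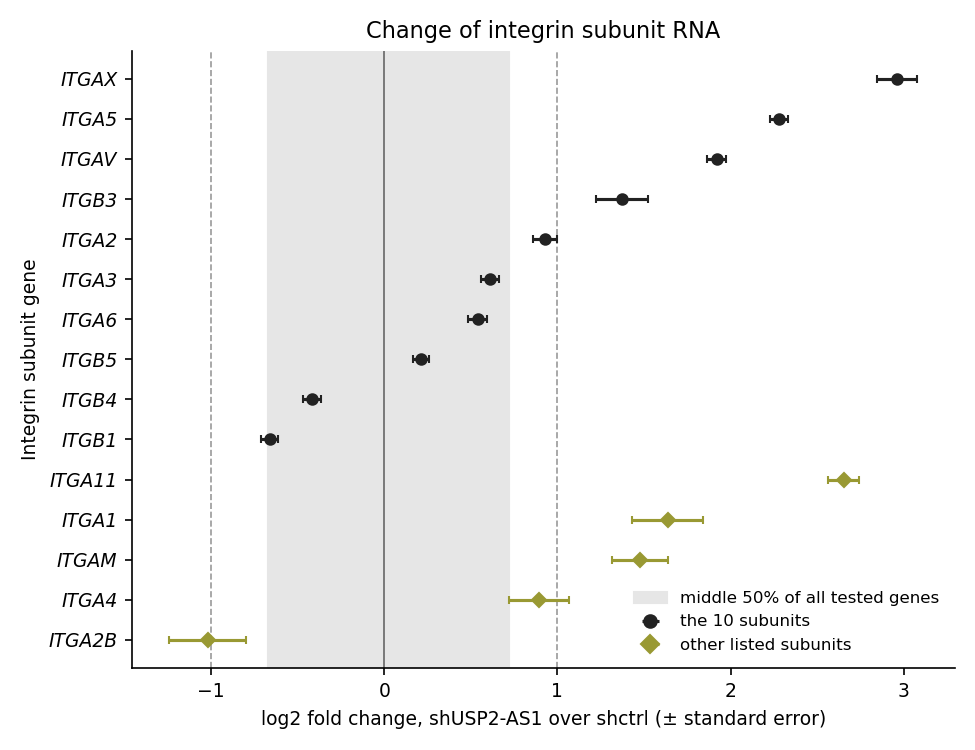
Log2 fold change of shUSP2-AS1 over shctrl for the 10 subunits (circles) and the 5 other listed subunits (diamonds), with the standard error from limma. The grey band holds the middle 50% of all genes fitted and dashed lines mark a log2 fold change of 1 in either direction. ITGAX (2.96), ITGA5 (2.28), ITGAV (1.92) and ITGB3 (1.37) lie beyond the right line, and ITGB1 (-0.66) and ITGB4 (-0.41) lie left of 0.

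To compare levels between genes, the normalized read count was divided by the gene length that the authors give, in kilobases. In shctrl, ITGB1 was the most abundant subunit, with 4708 ± 57.4 normalized reads per kilobase (SD, n = 2). ITGA3 followed with 1680 ± 14.8, ITGB5 with 1118 ± 16.4, ITGB4 with 977 ± 51.5 and ITGAV with 589 ± 33.4. ITGA6 had 258 ± 2.89, ITGA5 179 ± 0.865 and ITGA2 137 ± 5.26, and ITGB3 and ITGAX were lowest, with 18.2 ± 3.72 and 13.1 ± 1.08. The laminin-binding ITGA3 thus headed the alpha order and the common partner ITGB1 the beta order. In shUSP2-AS1, the levels per kilobase were 2978 ± 77.9 for ITGB1, 2566 ± 122 for ITGA3, 2229 ± 133 for ITGAV and 1297 ± 2.13 for ITGB5. ITGA5 had 869 ± 19.9 and ITGB4 733 ± 14.1, followed by ITGA6 with 375 ± 5.72, ITGA2 with 261 ± 23.3, ITGAX with 103 ± 0.978 and ITGB3 with 46.8 ± 3.11. Within each group and class, the libraries of neighbours in this order did not overlap. ITGAV came close to ITGA3 in shUSP2-AS1, and ITGA5 stood above ITGA6 there and below it in shctrl. The place of close neighbours depended on the length used. With the exonic length of GENCODE, ITGA6 stood above ITGAV in shctrl and ITGB5 above ITGB1 in shUSP2-AS1. That length is far greater for ITGAV and ITGB1 than the one the authors give for the counted genes, which lowers both. With the length of the MANE Select transcript, ITGB1 headed the beta order and ITGA5 stood above ITGA6 in both groups.

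The share of ITGAV in the summed level per kilobase of the 6 alpha subunits was 20.6% ± 0.792 in shctrl and 34.8% ± 0.419 in shUSP2-AS1, and that of ITGA5 was 6.26% ± 0.0848 and 13.6% ± 0.336. The share of ITGA3 was 58.8% ± 0.565 and 40.1% ± 0.00239, although its own level was higher in shUSP2-AS1. Among the 4 beta subunits, the share of ITGB1 was 69.0% ± 0.132 in shctrl and 58.9% ± 0.737 in shUSP2-AS1, that of ITGB5 16.4% ± 0.471 and 25.7% ± 0.308, and that of ITGB4 14.3% ± 0.553 and 14.5% ± 0.477. For ITGB4 the difference was smaller than the spread between libraries. The shares depended on the gene length as well, and the greater GENCODE length of ITGAV and ITGB1 lowers theirs. With the GENCODE exonic length the share of ITGAV was 9.94% ± 0.433 in shctrl and 18.5% ± 0.279 in shUSP2-AS1, and that of ITGB1 was 47.9% ± 0.152 and 37.2% ± 0.714. The share of ITGB4 was then 24.1% ± 0.90 and 22.2% ± 0.582, with the libraries of the groups not overlapping.

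**Figure D3:**
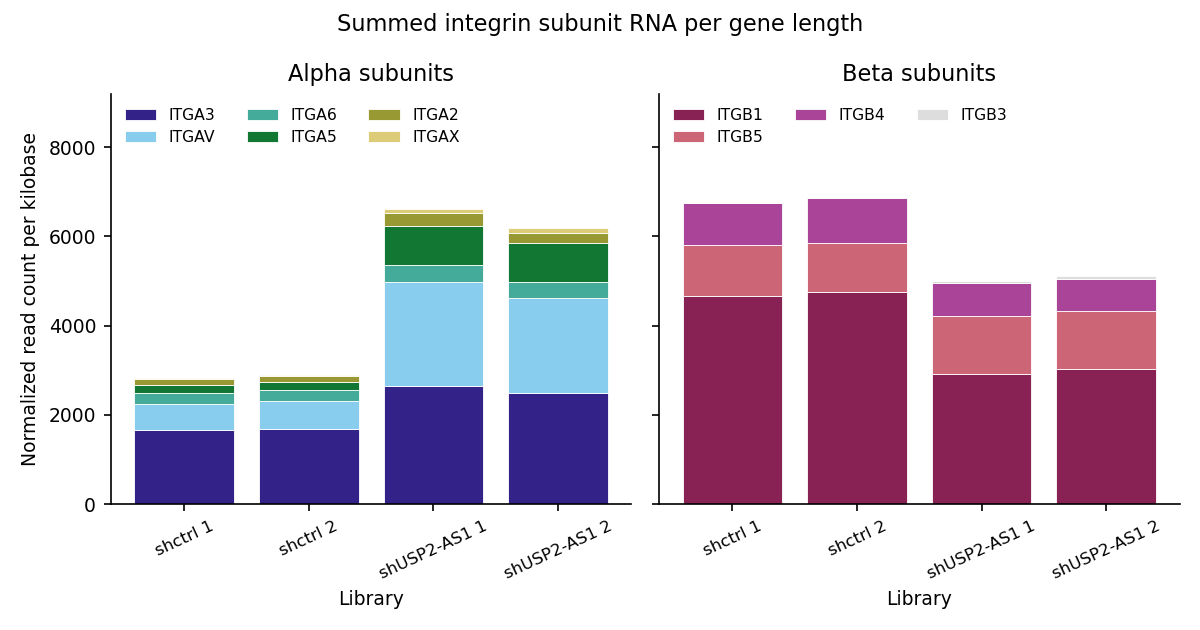
Normalized read count per kilobase of the 6 alpha subunits (left) and the 4 beta subunits (right), stacked for each library from 0. The alpha sum was 2818 and 2892 in shctrl and 6619 and 6188 in shUSP2-AS1, and the beta sum was 6754 and 6890 against 5006 and 5104.

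Because each receptor needs an alpha and a beta subunit, the levels of known partners were set against each other within each library, a ratio that scaling of the libraries cannot move. The summed level per kilobase of ITGA2, ITGA3, ITGA5, ITGA6 and ITGAV was 0.601 and 0.606 times that of ITGB1 in shctrl and 2.23 and 2.01 times in shUSP2-AS1, 3.51 times higher on average. The ratio of ITGAV to the sum of ITGB3 and ITGB5 was 0.494 and 0.543 in shctrl and 1.73 and 1.58 in shUSP2-AS1. That of ITGA6 to ITGB4 was 0.276 and 0.253 against 0.511 and 0.514. In each case the alpha subunits stood higher relative to these partners in both shUSP2-AS1 libraries than in either shctrl library. ITGAV and ITGA6 enter in full both over ITGB1 and over their other partners, and beta subunits that are not listed could not enter. The ratios are therefore not a full balance of alpha subunits and partners. The size of the ratio depended on the gene length, since GENCODE release 44 gives 14561 exonic bases for ITGB1 and 19336 for ITGAV where the authors give 6012 and 8220. With the GENCODE lengths, the ratio of the 5 alpha subunits to ITGB1 was 1.29 ± 0.000878 in shctrl and 4.09 ± 0.292 in shUSP2-AS1, 3.17 times higher. The counts belong to the genes as the authors define them, and the ITGB1 of GENCODE extends beyond their ends (from 32887273 against 32900318). The ratio of 1.29 thus divides the ITGB1 reads by bases that the authors' gene lacks. With the MANE Select length the ratio in shctrl was 0.633, so ITGB1 stood above the sum as with the authors' lengths. These are RNA levels and say nothing of the amount of receptor at the surface.

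The genes that act with integrins were described by lists of ligands, adaptors, inhibitors and membrane partners. Of 28 ligands, 22 are listed, and 20 of them were higher in shUSP2-AS1. In all 12 ligands were called, each as higher, beside 16.1% of all genes, and the median log2 fold change was 1.06. The number called higher was 10 with RLE scaling. It was 11 with a minimum mean of 100, where 648 of 6092 genes were called higher. The matrix glycoprotein tenascin C (TNC) had counts of 199 and 180 in shctrl and 901 and 865 in shUSP2-AS1, a log2 difference of 2.21 (standard error 0.10), and fibrillin 1 (FBN1) had 1244 and 1348 against 6227 and 5578. COL4A1, a chain of the basement membrane collagen, rose by 1.69 on the log2 scale. The ligands that were lower, LAMC1 with -0.55 and TGFB1 with -0.58, were not called.

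Of 34 activators and adaptors, 22 are listed, with a median log2 fold change of 0.45. The 4 that were called were each higher, and 4 of 22 is near the 16.1% called higher among all genes. All 22 had a mean of at least 100, and of the 6092 genes at that level 648 were called higher, a smaller share. LIMS2 and RSU1 belong to the complex of integrin-linked kinase, and had log2 fold changes of 2.19 (standard error 0.14) and 1.14 (standard error 0.06), and the focal adhesion proteins TNS1 and TGFB1I1 had 2.08 and 1.76. Talin 1 (TLN1), which binds the tail of beta subunits, had counts of 9083 and 9627 in shctrl and 8145 and 7616 in shUSP2-AS1, a log2 difference of -0.25 that was not called. NEDD9, a scaffold of focal adhesions, had the lowest value of the list, -0.89, and -1.01 with RLE scaling, which called it. Of 4 inhibitors only DAB2 is listed, with a log2 fold change of 1.03 (0.91 and not called with RLE scaling).

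All 11 membrane partners and hemidesmosome genes are listed, and all 11 were higher, with a median log2 fold change of 0.59. Of these 3 were called, each as higher, beside 16.1% of all genes. The tetraspanin CD82 had a log2 fold change of 2.11, the hemidesmosome collagen COL17A1 of 1.49 and dystonin (DST) of 1.12. CD151, the tetraspanin that binds ITGA3 and ITGA6 directly, had counts of 5881 and 5562 in shctrl and 9624 and 10339 in shUSP2-AS1, a log2 difference of 0.80 that was not called. The lists hold only genes that had passed the authors' threshold, so their medians stand beside that of all genes fitted, 0.19, as a description.

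**Figure D4:**
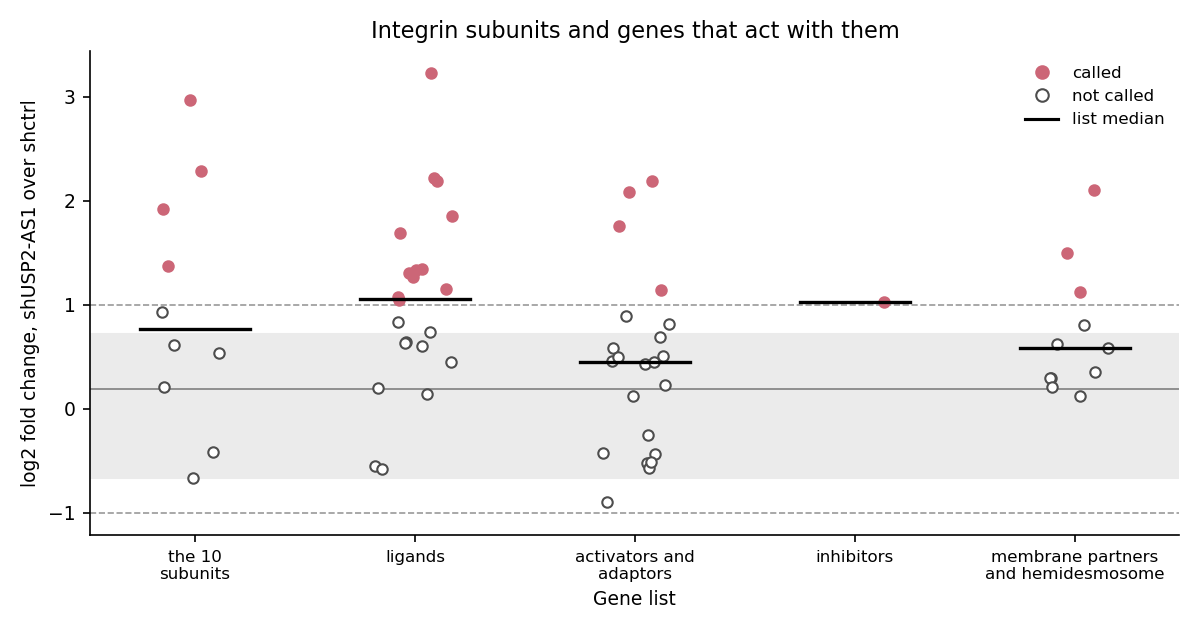
Log2 fold change of shUSP2-AS1 over shctrl for the 10 integrin subunits and for the listed ligands, activators and adaptors, inhibitors, and membrane partners with hemidesmosome genes. Filled points were called, black bars are list medians, the grey band holds the middle 50% of all genes fitted and the grey line their median of 0.19. Every called point lies above 1, and the ligands have the highest median among the lists of several genes, 1.06.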

How the data were processed

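RNA-seq was performed by the authors on A549 cells infected with shctrl or shUSP2-AS1 lentiviruses (2 libraries per group). The submitters' processing notes name HISAT2 2.0.5, featureCounts 1.5.0-p3, DESeq2 1.20.0 and hg38. The table that the authors deposited gives for every gene a signal in each library, namely the read count over the size factor of that library, with group means and gene lengths in bases. It also gives the result of the authors' comparison as a log2 ratio, a p-value and an adjusted p-value, which the present fits did not use and which were read only to find that all 6828 genes pass 0.05 and that sh216 columns are the numerator. Columns named scr were taken as shctrl and sh216 as shUSP2-AS1 from the heading of the table.

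Genes with a mean of at least 10 (6812) were fitted with limma (version 3.58.1, R 4.3.3) on log2(value + 1), with eBayes and trend, a scale that understates the change of low genes. Reads were recovered by dividing each value by that of 1 read (0.966 and 1.10 in shctrl, 1.05 and 0.88 in shUSP2-AS1), and 100% of values were whole within 0.05 reads. They served edgeR (version 4.0.16), which called 2022 genes, and DESeq2 (version 1.42.0), which called 2021, both with the size factors of the authors. Replicates differed beyond counting noise (chi-square per degree of freedom of 3.75 and 3.84). The study's methods call them biological replicates and the labels do not name separate cultures. The p-values therefore set the group difference against the spread between these libraries, which eBayes shares in part across genes. Alternatives were other scalings, filters, pseudocounts, lengths and tests, the replicate number as a block and each library left out. The other scalings were computed on the listed genes alone, so their premise that most genes do not differ is not met. The fits were tested on simulated data.

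Named genes were the 10 subunits, the other listed subunits, the target, and the 4 genes of each list with a mean of at least 100 and the largest absolute log2 fold change, of which 1 ligand is not reported here. LAMC1, TGFB1, TLN1, NEDD9, ITGB1-DT, ABCA3 and the markers were named outside this rule, after their values were seen. The subunits, gene lists and motifs were chosen with earlier results of these data known.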

Additional observations from a re-analysis of the deposited data

How the results depend on the processing

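The 4 called subunits ITGAX, ITGA5, ITGAV and ITGB3 met the call rule in all 13 refits and each of the 10 subunits kept its direction in them. With the replicate number as a block 4 subunits were called, the genes called numbered 2020, and no other call changed; the numbers did not pair the libraries (their deviations correlated at -0.04 across genes). Without a fold change threshold 10 subunits were called, 8 higher and 2 lower, and 6811 genes in all, 3449 higher and 3362 lower; at a fold change of at least 1.5 there were 7 subunits called and 1 lower. A minimum mean of 100 left 648 genes called higher and did not test ITGA2B, so 0 other subunits were called lower. That count was 0 with upper quartile scaling as well, and 0 to 1 with each library left out. RLE scaling called 10 ligands higher, 1 adaptor lower and 0 inhibitors higher, and it shifted the median of all genes by -0.12.

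Gene length moved the partner ratios. With the GENCODE exonic length and the MANE Select transcript length, which were added after seeing the data, the 5 alpha subunits over ITGB1 gave 1.29 and 0.633 in shctrl and 4.09 in shUSP2-AS1 with the former. ITGAV over ITGB3 and ITGB5 gave 0.221 and 0.414 in shctrl and 0.707 and 1.33 in shUSP2-AS1. ITGA6 over ITGB4 gave 0.515 with either in shUSP2-AS1. The 6 alpha over the 4 beta subunits, 0.418 and 1.27 with the authors' lengths, gave 0.621 and 0.465 in shctrl and 1.55 in shUSP2-AS1 with the GENCODE length. ITGAX and ITGB3, with 89 to 120 reads in shctrl, are the least precise of the 10.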
